A study of Mus musculus with 6 samples.

Results

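This account covers 10 genes of the blood vessel lining on 6 mouse mammary arrays: Pecam1, Cdh5, Esam, Emcn, Kdr, Flt1, Tek, Tie1, Eng and Robo4. They were chosen by name, as endothelial adhesion and receptor genes, with earlier results of these arrays known, and their values are therefore a description. Through the RefSeq accession of each probe they matched 11 of the 39429 probes on the array, 1 probe for each gene and a second probe for Kdr. All 11 probes were well above background on 6 of 6 arrays and none was saturated, so all 10 genes passed the filter on dim probes.

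The high-fat diet group (HFD) was 3 female Trp53-/- mice given that diet from 3 weeks of age, and the control diet group (CD) was 3 female Trp53-/- mice given the control diet over the same time. Mice were assigned to a diet at random and were 8 weeks old at the end, after 5 weeks on the diet. Every mouse lacked Trp53, the gene of the p53 tumour suppressor, so no array shows either diet with p53 present. One single-colour array was run for each mouse, and the 3 arrays of a diet are biological replicates. The labels give whole mammary glands as the source, while the sample descriptions speak of epithelial cells of the gland, and the sources used here do not settle which of the 2 was measured.

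The endothelium is the single cell layer that lines blood vessels. Its cells are held together at their junctions by adhesion proteins, grow and survive on vascular endothelial growth factor (VEGF) read by the receptors encoded by Kdr and Flt1, and are stabilised by angiopoietins read by the receptor encoded by Tek. In the mammary gland the vessels run through the fat pad and stroma around the epithelial ducts. In a tissue sample the summed RNA of such genes depends on both how many endothelial cells it holds and how much RNA each makes, and fewer cells and less RNA per cell cannot be told apart on these arrays.

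Between 27203 and 29412 probes were well above background on an array, and the 75th percentile of intensity ran from 1595 to 1970 on the HFD arrays and from 1323 to 1830 on the CD arrays. The leading principal component over all genes held 46.7% of the variance, and the HFD arrays scored -56.0, -50.1 and 7.32 on it, with the CD arrays at 0.55, 48.8 and 49.4, so that HFD replicate 3 and CD replicate 1 lay side by side. All 8 luminal and all 6 basal epithelial marker genes were well above background on every array, and so were 6 of 8 white adipocyte genes. Of the other 2, the fat cell hormone gene Adipoq was not well above background on CD replicate 1, nor was Cidec on HFD replicate 2. So were 6 of 7 skeletal muscle and 6 of 8 leukocyte genes measured. A filter on all 6 arrays kept 21118 genes, where the filter used here kept 23460. Being well above background is thus common and does not check the labelled tissue. A level below is the log2 of a probe's processed signal over the 75th percentile of its array, and levels of different probes are not set against each other. The number of arrays limits the precision of everything below.

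The stretches upstream of the start site of a gene are among the places where transcription factors of the ETS family, which share a GGAA core, can act in endothelial cells. The gene start table from RefSeq on the mouse build GRCm38.p6 held 7 of the 10 genes; Cdh5, Esam and Pecam1 were not matched. The 250-base upstream stretches of 3 genes are shown, because they belong to the pair of genes whose levels were most alike over the arrays (Tie1 and Robo4) and to Kdr, whose level by one probe was nearly flat. Each is written 5′ to 3′ on the strand of the gene, with GGAA on either strand (GGAA or TTCC) in capitals.
Tie1 (chr4:118489850-118490099, minus strand): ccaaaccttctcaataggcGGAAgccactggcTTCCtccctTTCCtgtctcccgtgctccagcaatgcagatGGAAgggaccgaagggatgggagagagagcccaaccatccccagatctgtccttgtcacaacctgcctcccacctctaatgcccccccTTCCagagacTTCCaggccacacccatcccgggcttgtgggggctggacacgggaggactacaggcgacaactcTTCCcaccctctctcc
Robo4 (chr9:37401722-37401971, plus strand): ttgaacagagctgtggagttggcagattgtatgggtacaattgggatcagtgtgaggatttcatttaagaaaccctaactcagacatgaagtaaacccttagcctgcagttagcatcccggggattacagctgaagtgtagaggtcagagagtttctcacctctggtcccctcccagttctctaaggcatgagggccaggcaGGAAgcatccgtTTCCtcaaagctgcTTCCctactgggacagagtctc
Kdr (chr5:75978456-75978705, minus strand): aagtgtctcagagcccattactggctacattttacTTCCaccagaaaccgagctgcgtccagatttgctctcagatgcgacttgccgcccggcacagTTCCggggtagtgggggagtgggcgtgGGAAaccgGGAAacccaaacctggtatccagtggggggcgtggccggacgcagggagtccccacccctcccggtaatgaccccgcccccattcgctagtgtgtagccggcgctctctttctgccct
The Tie1 stretch held 7 such cores, the Robo4 stretch 3 and the Kdr stretch 4. All 7 member stretches held at least 1 (median 4), but so did 93.4% of the 32851 stretches of the same length in the table (median 3), so the core alone does not set these genes apart. The longer form AGGAAG, which contains the core, was in 5 of 7 member stretches and 29.5% of all, and CGGAAG, which also contains it, in 1 of 7 and 13.6% of all. GATAA, the core of sites for GATA factors, was in 0 of 7 and 22.6% of all, and TATAAA in 1 of 7 and 12.4% of all. All motifs were searched on both strands. Base composition differed as well, with a median of 60.4% G and C in the member stretches and 52.4% in all, and its part in these counts was not tested. A match is a description of letters and not a bound site.

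Levels of the adhesion and junction genes differed severalfold between arrays of the same diet. Cdh5, which encodes VE-cadherin, the adhesion protein of endothelial junctions, had levels of -1.70, 0.41 and -1.005 on HFD arrays 1, 2 and 3, against -1.58, -0.71 and -0.39 on CD arrays 1, 2 and 3. HFD replicate 2 was the highest and HFD replicate 1 the lowest of all 6, so the diets overlapped completely. The spread between the highest and lowest array was 4.32-fold. Pecam1, which encodes the adhesion protein CD31, had levels of -3.36, -2.36 and -3.14 on the HFD arrays and -3.24, -2.74 and -2.55 on the CD arrays. Its order over the arrays was that of Cdh5, with a smaller range of 2.00-fold.

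Esam, which encodes a junctional adhesion molecule of endothelial cells and platelets, had levels of -2.61, -0.36 and -1.43 on the HFD arrays, against -3.16, -1.41 and -1.60 on the CD arrays. HFD replicate 2 was again highest, and CD replicate 1 was lowest, 6.95-fold apart. Emcn, which encodes endomucin, a sialomucin of venous and capillary endothelium, had levels of -3.43, -1.33 and -2.98 on the HFD arrays and -4.66, -3.69 and -3.59 on the CD arrays. All 3 HFD arrays lay above all 3 CD arrays, the narrowest gap being that between HFD replicate 1 and CD replicate 3. Emcn was the only one of the 10 genes in which the diets did not overlap.

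Of the VEGF receptors, Flt1 encodes VEGFR1, which binds VEGF tightly and exists in a soluble form that holds the ligand back. Flt1 had levels of -0.87, 0.27 and 0.64 on the HFD arrays, against -2.05, -0.05 and -0.76 on the CD arrays. HFD replicate 3 was the highest and CD replicate 1 the lowest, 6.49-fold apart, and HFD replicate 1 lay below CD replicates 2 and 3.

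Kdr encodes VEGFR2, the main signalling receptor for VEGF in endothelial cells, and its 2 probes, both assigned to the accession NM_010612, did not show the same pattern. Probe A_55_P2094469, the one with the higher mean signal and hence the one used for the gene, had levels of 3.14, 3.29 and 3.62 on the HFD arrays and 3.23, 3.37 and 3.67 on the CD arrays, a range of 1.44-fold. Probe A_51_P316553, printed in 10 spots on each array, had levels of -2.33, -0.46 and -1.98 on the HFD arrays, against -3.09, -1.74 and -1.69 on the CD arrays, a range of 6.19-fold. By that second probe HFD replicate 2 was highest and CD replicate 1 lowest, as in Esam, Emcn, Tek, Tie1 and Robo4. The 10 spots of an array agreed closely, with an SD of 0.05 to 0.07 log2 units, so the differences between arrays were far larger than the spread between spots. Why the probes differ was not tested, and each Kdr value below names its probe.

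**Figure D1:**
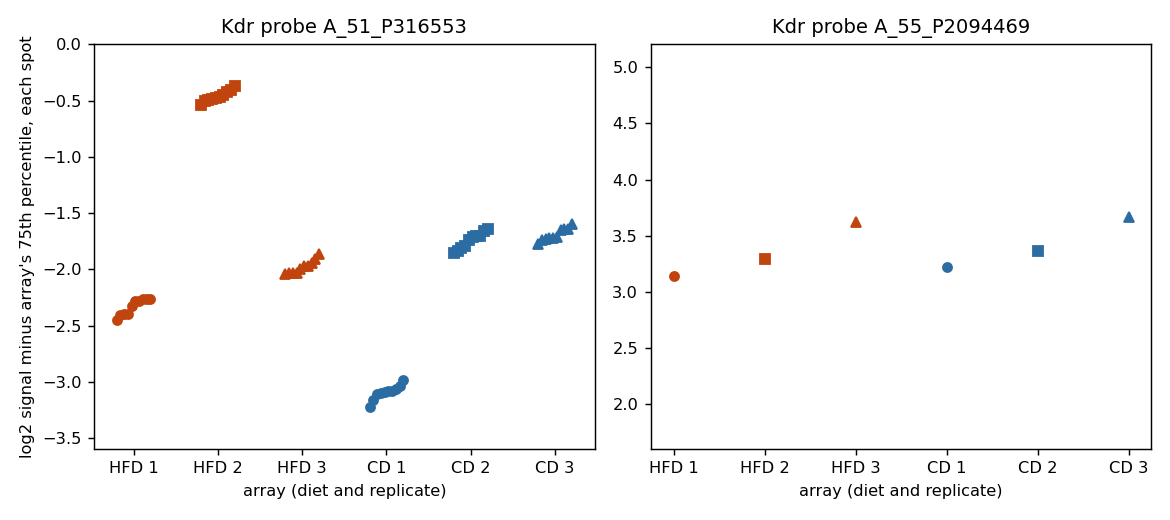
Levels (log2 signal minus the 75th percentile of the array) of every spot of the 2 Kdr probes, by array, HFD arrays in orange and CD arrays in blue. The 10 spots of probe A_51_P316553 stay together on each array while the arrays range from -3.09 (CD replicate 1) to -0.46 (HFD replicate 2), whereas probe A_55_P2094469 lies between 3.14 and 3.67 on all 6; the vertical axes differ in position.

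Tie1 had the largest range of the 10 genes. It encodes an orphan receptor that pairs with the angiopoietin receptor, and had levels of -4.77, -1.71 and -3.93 on the HFD arrays, against -5.60, -3.42 and -3.17 on the CD arrays. HFD replicate 2 was 14.8-fold above CD replicate 1, and CD replicate 3 was the next highest. The unscaled intensities ran from 37.7 to 499.9, a 13.2-fold range without any scaling. Tek, which encodes the angiopoietin receptor TIE2, had levels of -4.68, -3.62 and -5.04 on the HFD arrays and -5.47, -3.70 and -5.21 on the CD arrays. Here CD replicate 2 lay next to HFD replicate 2, and the other 4 arrays were lower, for a range of 3.61-fold.

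Robo4, which encodes an endothelial receptor of the Roundabout family that maintains the vessel barrier, had levels of -1.64, 0.64 and -0.80 on the HFD arrays, against -2.44, -0.33 and -0.28 on the CD arrays. Its arrays fell in the same order as those of Tie1, with a range of 8.47-fold. Eng, which encodes endoglin, a co-receptor for TGF-beta and BMP ligands, had levels of -0.17, 0.45 and 0.38 on the HFD arrays and -0.03, 0.45 and 0.54 on the CD arrays. Eng was nearly flat, with a range of 1.63-fold, although its 2 lowest arrays were the same 2 as in most of the other genes.

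**Figure D2:**
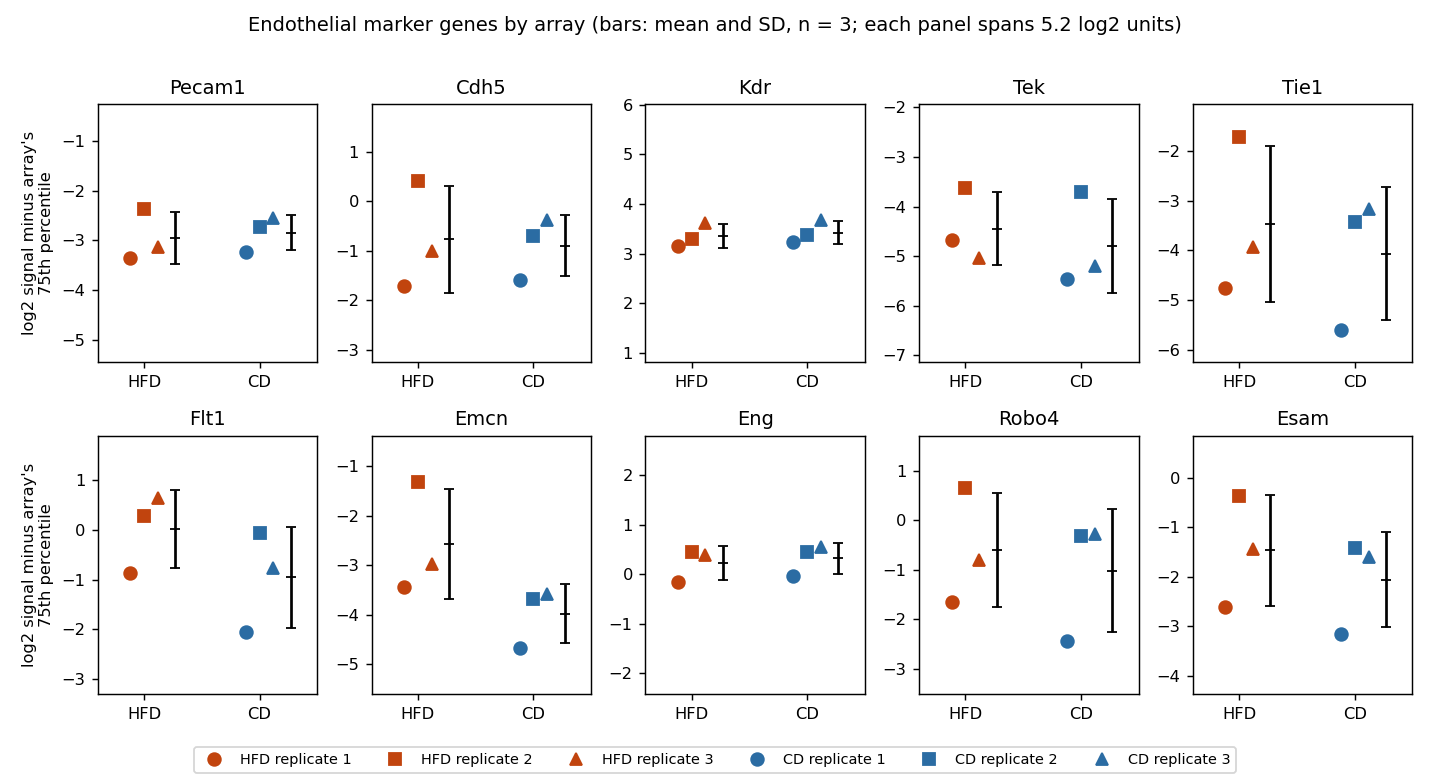
Level of each gene (log2 signal minus the 75th percentile of the array; Kdr by probe A_55_P2094469) on each array, with HFD left of CD and the mean and SD of each diet beside the points (n = 3). Every panel spans the same number of log2 units, so that Tie1 (14.8-fold from lowest to highest array) can be set against Kdr (1.44-fold) and Eng (1.63-fold); the vertical axes differ in position.

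The contrast of the design was diet, and no gene of the 10 passed the test for it. In limma, 0 of the 10 genes passed an adjusted p of 0.05, where 0.0171% of all 23460 genes fitted did, and 0 of 10 reached an unadjusted p of 0.05, where 13.3% of all genes did. Emcn came nearest, with -2.58 ± 1.11 on the HFD and -3.98 ± 0.59 on the CD arrays (SD, n = 3 each). The difference was 1.40 with an SE of 0.59 (in limma, adjusted p = 0.376 and unadjusted p = 0.052). The 95% interval of that difference, -0.02 to 2.81, just included 0. The difference was smaller than the spread of 2.10 log2 units between the HFD arrays and larger than the 1.07 between the CD arrays. Over all genes, 8.43% had every HFD array above every CD array and 8.75% every HFD array below, so 1 gene of 10 apart is close to the background.

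Flt1 averaged 0.01 ± 0.79 on the HFD arrays and -0.96 ± 1.01 on the CD arrays (SD, n = 3 each), and the difference was 0.97 with an SE of 0.60 (in limma, adjusted p = 0.484). Esam differed by 0.59 (SE 0.69), Tie1 by 0.59 (SE 0.96), Robo4 by 0.42 (SE 0.78), Tek by 0.35 (SE 0.56) and Cdh5 by 0.13 (SE 0.58). Negative differences, all small, were found in 3 genes: Pecam1 (-0.11, SE 0.31), Eng (-0.09, SE 0.23) and Kdr by probe A_55_P2094469 (-0.07, SE 0.18). Kdr by probe A_51_P316553 differed by 0.59 (SE 0.59, adjusted p = 0.641 in limma over all probes). Adjusted p for the 10 genes ran from 0.376 to 0.929 in limma.

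A p that misses the threshold does not show that the diets gave the same level, and how closely each gene was bounded varied. The 95% interval of the difference was -0.52 to 0.38 for Kdr by probe A_55_P2094469 and -0.66 to 0.47 for Eng, but -1.72 to 2.90 for Tie1 and -1.48 to 2.31 for Robo4. In 9 of 10 genes the difference was smaller than the spread between the highest and lowest array within each diet, and in 9 of 10 the diets overlapped. The count by spread was not made over all genes. The median difference was 0.38 over the 10 genes, against -0.01 over all genes. The median of the residual SD, which measures the spread between arrays of a diet, mouse and slide together, was 0.88 for the 10 genes and 0.22 for all genes. The residual SD was larger than the size of the difference in 8 of the 10 genes and in 12340 of all 23460. Of the 10 genes, 7 (70%) spanned more than 2-fold over the 6 arrays, against 28.6% of all genes.

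**Figure D3:**
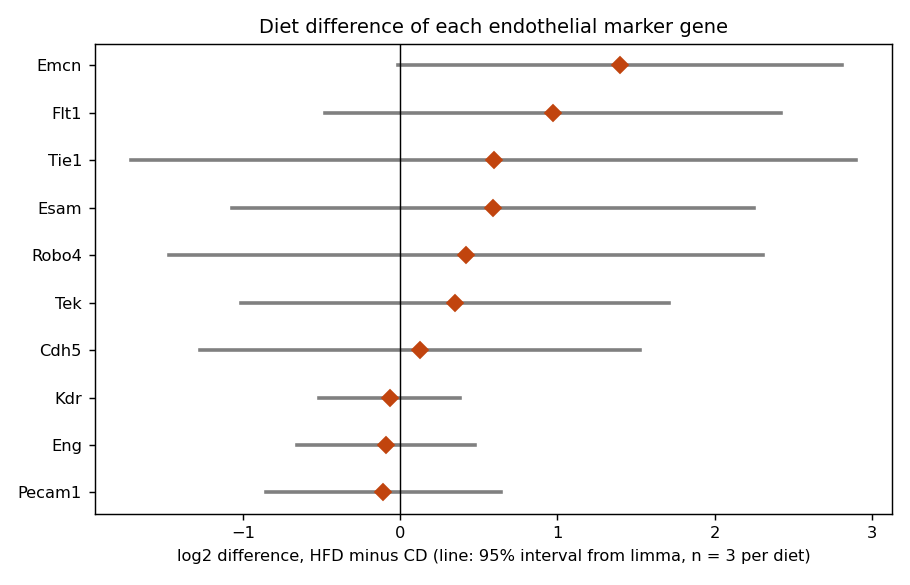
Difference between diets, HFD minus CD in log2 units, of each gene with its 95% interval from limma (n = 3 per diet; Kdr by probe A_55_P2094469). All 10 intervals include 0, with Emcn (1.40) farthest from it and Tie1 (-1.72 to 2.90) the widest.

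The 10 genes moved with the array more than with the diet. Their mean level was -2.01, -0.43 and -1.37 on HFD arrays 1 to 3, against -2.50, -1.22 and -1.33 on CD arrays 1 to 3. HFD replicate 2 stood highest and CD replicate 1 lowest, with HFD replicate 1 next to it. Averaged by diet this gave -1.27 ± 0.79 for HFD and -1.69 ± 0.71 for CD (SD, n = 3 each). HFD replicate 2 was the highest array for 7 of the 10 genes, CD replicate 3 for 2 and HFD replicate 3 for 1. The lowest array was HFD replicate 1 for 4 genes and CD replicate 1 for the other 6. These lowest 2 arrays, HFD replicate 1 and CD replicate 1, had the brightest 75th percentile of their diets, 1970 and 1830 intensity units, and the part of that in their low levels was not tested. Each also lay on a different slide from the other arrays of its diet, so mouse and slide cannot be told apart in these levels. Without scaling, the intensities still ranged 9.01-fold for Emcn, 7.59-fold for Robo4 and 6.23-fold for Esam, with 1.76-fold for Pecam1 and 1.28-fold for Eng. The lowest array was then another one for Pecam1 (HFD replicate 3), Kdr by probe A_55_P2094469 (CD replicate 2) and Tek (CD replicate 3).

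Of the 3 slides used, only 1 carried arrays of both diets. On that slide both HFD arrays, replicates 2 and 3, were above the single CD array, replicate 1, in 10 of 10 genes, where 34.6% of all genes had that order. This count holds for scaled levels. Unscaled, Pecam1 was lower on HFD replicate 3 (181.0) than on CD replicate 1 (193.1). Kdr by probe A_55_P2094469 was lower on HFD replicate 2 (16080) than on CD replicate 1 (17107). The differences within the slide ran from 0.23 for Kdr (probe A_55_P2094469) and 0.45 for Eng to 2.51 for Flt1 and 2.78 for Tie1, with a median of 1.77. In limma with slide as a block the adjusted p ran from 0.693 for Flt1 to 1.000. CD replicate 1 was the lowest of the 6 arrays by mean level, and this value rests on it. Without CD replicate 1, over all slides, the median difference of the 10 genes was -0.17, without HFD replicate 2 it was -0.14, and without both it was -0.46. The sign of this median thus turned on 2 arrays, 1 of each diet.

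Array by array the genes went up and down together. Of the 45 pairs among the 10 genes, 44 had a positive Pearson correlation over the 6 arrays, the median r was 0.74 and the median Spearman rho was 0.6. In 18 pairs (40%) r was above 0.8, where 6.85% of all pairs of genes in the fit were (median r of all pairs 0.03). The pairs share the same 6 arrays and 10 genes and are not independent of each other. The closest pair was Tie1 and Robo4, with r = 0.989 (exact permutation p = 0.00139, two-sided, adjusted p = 0.0312 over the 45 pairs) and rho = 1.00 (exact p = 0.00278, adjusted p = 0.0625). Pecam1 and Cdh5 had r = 0.964 with the same p-values, and rho = 1.00. An exact test on 6 arrays cannot give a p below 0.00139. At an unadjusted exact p of 0.05, 16 of 45 pairs passed by Pearson's r, and after adjustment 2 did by Pearson's r and 0 by Spearman's rho.

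Part of this covariation rested on the highest and lowest arrays. Without HFD replicate 2 and CD replicate 1 the median r over 4 arrays was 0.61 and 35 of 45 pairs were positive. Tie1 and Robo4 kept r = 0.99, and Pecam1 and Cdh5 0.96. Emcn did not: its r turned to -0.58 with Pecam1, -0.53 with Tek, -0.38 with Tie1, -0.34 with Robo4 and -0.33 with Cdh5. Its r with Flt1 was still 0.65. Tek had r from -0.53 (Emcn) to 0.14 (Robo4) with the other genes. Flt1 had r of -0.10 with Pecam1 and 0.15 with Cdh5 and Tie1, but 0.67 with Esam. Taken as deviations from the mean of each diet, the genes had a median r of 0.80, with 44 of 45 pairs positive.

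**Figure D4:**
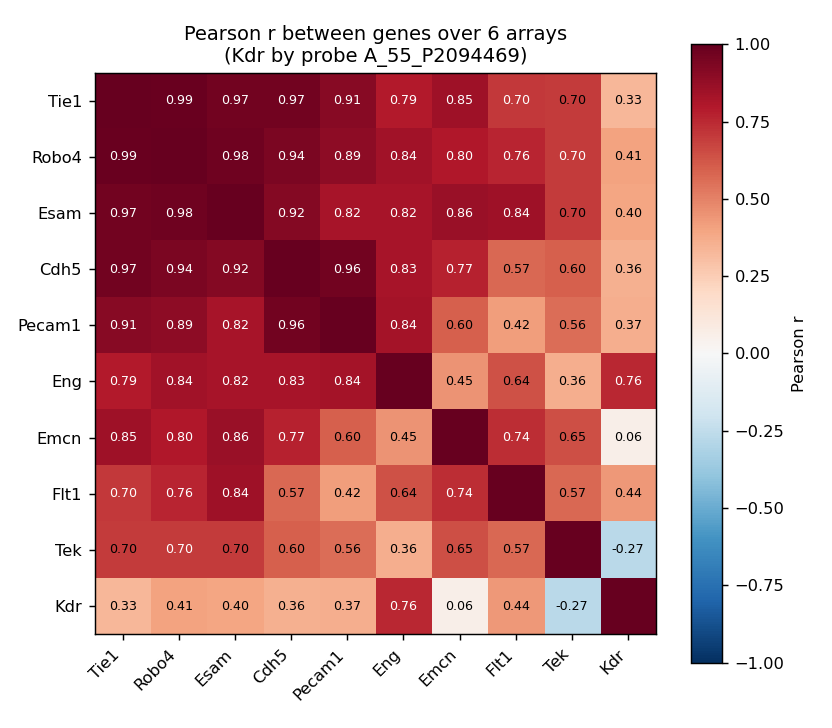
Pearson r between the 10 genes over the 6 arrays, with Kdr by probe A_55_P2094469. Tie1, Robo4, Esam, Cdh5 and Pecam1 form a block of r from 0.82 to 0.99, while the Kdr row has r from -0.27 (Tek) to 0.76 (Eng).

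Each gene was also set against the mean of the other 9. Esam followed it most closely (r = 0.99), then Robo4 and Tie1 (0.98 each), Cdh5 (0.91), Pecam1 (0.83), Emcn (0.83), Eng (0.78), Flt1 (0.75) and Tek (0.68). Kdr depended on the probe, with r = 0.31 for A_55_P2094469 and 0.98 for A_51_P316553. With probe A_51_P316553 in place of the other, the median r of the 9 pairs that involve Kdr was 0.91 instead of 0.37, and Kdr and Tie1 had r = 0.987 (exact permutation p = 0.00139). The median over all 45 pairs was then 0.82, a choice of probe made after the values were seen.

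Many other endothelial genes went with the same order of arrays. The mean level of the 10 genes was correlated with every other gene over the 6 arrays, as a description with no test, and 2.15% of the 23450 genes outside the 10 had r above 0.8 (median r 0.03). Of 28 further endothelial surface and junction genes, all measured, 18 (64.3%) had r above 0.8. They included Plvap, of the diaphragms of fenestrated endothelium (r = 0.98), Gimap4, an immune-associated GTPase gene (0.99), Cd93 (0.97), Icam2 (0.96), Gpihbp1, which anchors lipoprotein lipase on capillaries (0.96), Nos3, the endothelial nitric oxide synthase (0.94), and Vwf, the von Willebrand factor (0.93). The mean of the 28 genes was -2.52, -0.90 and -1.82 on the HFD arrays and -2.57, -1.58 and -1.49 on the CD arrays. HFD replicate 2 was thus highest, and CD replicate 1 and HFD replicate 1 lowest, in this list too.

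In the diet comparison 0 of those 28 genes passed in limma, with 17 differences positive and 11 negative (median 0.17). The smallest p-values belonged to 2 of the genes whose r was not above 0.8. They were Clec14a, an endothelial lectin-like receptor (difference -1.50, SE 0.22, adjusted p = 0.117 in limma, r = -0.46), and Cd34, a sialomucin of endothelium that stromal progenitors carry too (-1.41, SE 0.21, adjusted p = 0.13 in limma, r = -0.13). Other genes with low r included Calcrl (-0.17), S1pr1 (0.25), Acvrl1 (0.34), Tspan7 (0.40) and Cav1 (0.41). Clec14a had levels of -6.04, -6.08 and -5.58 on the HFD arrays, against -4.10, -4.71 and -4.39 on the CD arrays, with the diets apart. Cd34 had levels of 3.28, 3.68 and 3.94 on the HFD arrays, against 4.84, 5.00 and 5.30 on the CD arrays, also apart. The next by p were Selp, the gene of P-selectin (1.03, SE 0.50), and Adgrl4, an adhesion receptor gene of vessel sprouts (1.21, SE 0.67), which had adjusted p of 0.405 and 0.444 in limma.

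Transcription factor genes of endothelium came next. Of 17 listed, all measured, 6 (35.3%) had r above 0.8 with the mean of the 10: Erg (0.98), Sox18 (0.97), Fli1 (0.96), Sox17 (0.96), Tal1 (0.94) and Lyl1 (0.87). Sox18, a factor of early vessel growth, had levels of -3.34, -0.48 and -2.06 on the HFD arrays, against -3.97, -1.46 and -1.37 on the CD arrays, an 11.2-fold range. Erg, an ETS factor of endothelial identity, had -6.46, -4.40 and -5.97 on the HFD arrays and -7.47, -5.35 and -5.42 on the CD arrays. Among the remaining 11 were Klf4 (r = -0.09), Ets1 (0.03) and Ets2 (0.19), which many other cell types also express, and Sox7 (0.43), a vessel factor like Sox17 and Sox18. In the diet comparison 0 of 17 passed in limma. By p the leading ones were Nr2f2 (-0.73, SE 0.15, adjusted p = 0.215), a venous fate factor, Ets1 (0.55, SE 0.14, adjusted p = 0.264), Ets2 (0.36, SE 0.20) and Epas1 (-0.22, SE 0.18), the hypoxia-inducible factor 2 alpha.

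Ligands read by endothelium were taken next. The list of 15 ligands and co-receptors held the VEGF and angiopoietin families and neuropilins, and also Slit2, Slit3, Apln, Tgfb1 and Gdf2, whose receptors lie on endothelium too. Of these 13 were measured (Angpt4 and Gdf2 were not in the fit), and 1 of 13 had r above 0.8, Angpt2 (0.82), an angiopoietin made by endothelial cells themselves. In the diet comparison 0 passed in limma, and 11 differences were negative and 2 positive (median -0.34). In 5 (Vegfd, Angpt1, Slit2, Slit3 and Apln) all HFD arrays lay below all CD arrays, where 8.75% of all genes had that order. Vegfd, a ligand of VEGFR3 and in human also of VEGFR2, had levels of -1.70, -1.61 and 0.29 on the HFD arrays, against 0.85, 1.39 and 1.87 on the CD arrays (difference -2.38, SE 0.58, adjusted p = 0.251 in limma). Angpt1, the activating ligand of TIE2, differed by -1.39 (SE 0.37, adjusted p = 0.268), Slit3 by -1.73 (SE 0.46, adjusted p = 0.274) and Slit2 by -1.24 (SE 0.39, adjusted p = 0.320) in limma. Vegfa, the main ligand of VEGFR2, differed by 0.15 (SE 0.25). Fibroblast genes had 7 of 8 differences negative (median -0.96), with 0 of 8 past the test, and list means of 2.94, 2.95 and 4.08 on the HFD arrays and 4.04, 4.41 and 4.65 on the CD arrays, and their part in the ligand values was not tested.

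Of 11 Notch and Eph genes used by endothelium, 3 had r above 0.8, Notch4 (0.99), the receptor most restricted to endothelium, its ligand Dll4 (0.97), and Hes1 (0.88). Dll4 had levels of -5.87, -3.18 and -4.53 on the HFD arrays, against -5.96, -4.34 and -4.06 on the CD arrays. In the diet comparison 10 of 11 differences were positive (median 0.52) and 0 passed in limma, led by Jag2 (0.76, SE 0.16, adjusted p = 0.213), Jag1 (1.38, SE 0.34, adjusted p = 0.254) and Hey1 (1.69, SE 0.52, adjusted p = 0.314). Hey2, also among the smallest p-values, was well above background on 3 of 3 HFD and 0 of 3 CD arrays. It passed the filter through the HFD arrays alone and has only a rough bound, about 1.67-fold higher on the HFD arrays. Measured means were -6.82 on HFD and -8.64 on CD arrays (adjusted p = 0.239 in limma). The bound takes for each CD array the higher of its own signal and the lowest signal well above background. That lowest signal is not a strict ceiling, because being well above background is judged spot by spot. Of the 10 genes well above background on every array, 9 differences were positive, where 11468 of all 23460 genes had a positive difference. Among those 10 genes, 3 had all HFD arrays above all CD arrays, where 8.43% of all genes had that order. Jag2, Jag1 and Hey1 had r of -0.02, 0.19 and 0.69 with the mean of the 10 endothelial genes, and Jag1 and Jag2 are also made by epithelium. Basal epithelial genes had 6 of 6 differences positive (median 1.09), with 0 of 6 past the test, and list means of 2.75, 2.69 and 2.51 on the HFD arrays and 1.63, 2.01 and 1.56 on the CD arrays, and their part was not tested.

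Pericytes and smooth muscle cells wrap the vessels. Of 15 genes listed for these cells 2 had r above 0.8, Kcnj8 (0.93) and Abcc9 (0.83), the subunits of a potassium channel of pericytes. Rgs5, another pericyte gene, had 0.79. The list also holds Pdgfb, a growth factor gene that does not mark these cells. Kcnj8 was not well above background on HFD replicate 1 and CD replicate 1. In the diet comparison 0 of 15 passed in limma, with 9 differences positive and 6 negative. The smallest p-values belonged to contractile and growth factor genes, Cnn1 (1.32, SE 0.29), Pdgfb (1.22, SE 0.27) and Acta2 (0.83, SE 0.21), and to the adhesion gene Mcam (0.42, SE 0.11), with adjusted p of 0.230 to 0.272 in limma. Basal epithelial cells also make Cnn1 and Acta2.

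Markers of other cell types mostly did not follow the endothelial order. Of 8 fibroblast, 8 luminal epithelial, 6 basal epithelial and 7 skeletal muscle genes measured, 0 had r above 0.8. Among white adipocyte genes 1 of 8 did, Fabp4 (0.91), a fatty acid binding protein gene that capillary endothelium also expresses, while Adipoq had 0.65 and Cidec -0.67. Of 8 leukocyte genes measured 1 did, Lyz2 (0.86), and Ptprc, the gene of the pan-leukocyte antigen CD45, had 0.67. The leukocyte mean was -3.05, -2.86 and -2.84 on the HFD arrays and -3.50, -2.96 and -2.90 on the CD arrays, a range of 0.66 log2 units where the endothelial mean spanned 2.07. It was lowest on CD replicate 1 and next lowest on HFD replicate 1, as the endothelial mean was. The white adipocyte mean was also lowest on CD replicate 1 (-5.20), and both lists were highest on HFD replicate 3. What these lists share with the endothelial genes was not tested. Of 4 platelet genes measured 1 had r above 0.8, Pf4 (0.90). Only 3 of 7 lymphatic endothelial genes listed were measured (Prox1, Reln, Ccl21a and Mmrn1 were not in the fit), and 0 of the 3 had r above 0.8. Among them Lyve1 (r = 0.75) was well above background on only 3 of 6 arrays. Luminal epithelial means were 1.88, 2.11 and 0.83 on the HFD arrays and 1.26, 0.68 and 0.56 on the CD arrays, which put HFD replicate 1 near the top where the endothelial genes put it near the bottom.

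**Figure D5:**
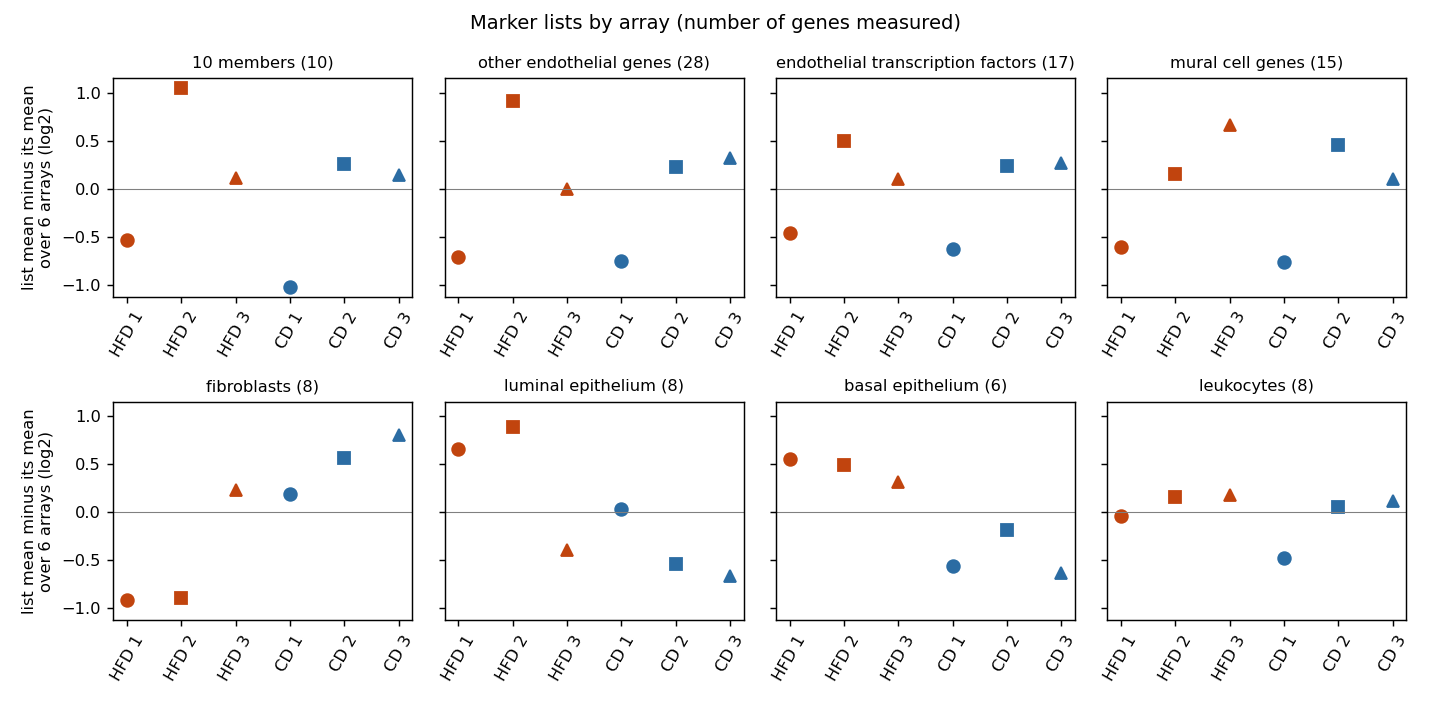
Mean level of each marker list on each array, minus the mean of the list over the 6 arrays (log2), with HFD arrays left of CD arrays; the number of genes measured is in each title and "members" are the 10 endothelial genes. The 10 endothelial genes, the 28 further endothelial genes and the 17 transcription factors share the order with HFD replicate 2 highest and CD replicate 1 lowest, which the fibroblast and epithelial lists do not show. The leukocyte list and the list of pericytes and smooth muscle are also lowest on CD replicate 1, but highest on HFD replicate 3.

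The genes most like the mean of the 10 over the 6 arrays, out of 16377 with a symbol, were Mmrn2 (r = 0.998), Sdccag8 (0.997), Grrp1 (0.996), Grap (0.994), Mfng (0.994), Esm1 (0.993), Gimap8 (0.992) and Usf1 (0.991). Mmrn2, which encodes a matrix protein of endothelium, had levels of -2.59, -0.38 and -1.64 on the HFD arrays, against -3.43, -1.57 and -1.71 on the CD arrays. Esm1, which encodes endocan, a proteoglycan of endothelial tip cells, had -3.14, -0.67 and -2.27 on the HFD arrays and -3.68, -2.13 and -2.14 on the CD arrays. Sdccag8 and Usf1 shared the order but hardly the size, with ranges of 0.36 and 0.33 log2 units. With so many genes and 6 arrays, the highest values of r are picked from a large set and are a description. In the diet comparison 0 of the 8 passed in limma (adjusted p from 0.649 to 0.863).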

How the data were processed

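Total RNA of 6 mice was hybridised to 6 single-colour (Cy3) Agilent arrays, 3 HFD and 3 CD, grouped by the labels. Per the file headers, the scanner files were made with Agilent Feature Extraction 11.0.1.1 and hold intensity on a linear scale, background-subtracted in the processed signal. The deposited table of 30608 probes holds intensity divided by the 75th percentile of each array (99.9% of values within 1%), with column medians of 0.134, 0.134 and 0.137 for HFD and 0.134, 0.140 and 0.134 for CD, and 6 of the 10 genes.

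From the deposited intensity, log2 values relative to the 75th percentile of each array were computed, without control or outlier spots, and spots of a probe averaged; 111 of 39429 probes lacked a usable spot on an array. Probes were named through RefSeq accessions (27421 by 1 symbol). A probe was kept if 3 or more of the 6 arrays had it well above background (28689 probes), and a gene was represented by its probe of highest mean (23460 genes). The diet comparison, HFD minus CD, was fitted with limma 3.58.1 (R 4.3.3), with two-sided p-values adjusted by Benjamini-Hochberg across all 23460 genes; the code was tested on simulated data first. Correlations used exact permutation over all orders of the 6 arrays, computed with numpy 2.4.6, with ranks and adjustment from scipy 1.17.1. Normexp backgrounds (offset 50) used median spot signals, as the files hold no mean. Slides, which coincide with scans, were tried as a block.

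The 10 genes, the lists and the tests were chosen with earlier results of these data known. Named genes are the 10, the 8 most alike, the 4 smallest p-values of each list described by diet, and list members named for their r with the mean of the 10, which were picked after the values were seen. Probe coordinates are left out, as the build of the array design is not that of the tables used here.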

Additional observations from a re-analysis of the deposited data

How the results depend on the processing

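None of the 10 genes passed an adjusted p of 0.05 in limma under any setting tried (lowest 0.197), and Emcn (0.43 to 2.50) and Flt1 (0.29 to 2.51) kept a positive difference under every one of them. The count of all genes past the test was 4, and 0 with quantile normalization, normexp with the 75th percentile, no filter, slide as a fixed block or the replicate block, 7 with normexp and quantile normalization or with the filter on all 6 arrays, and 0 to 42 when 1 array was left out (42 without HFD replicate 3, 0 without any other). The deviations of same-numbered arrays of the diets had correlations of 0.33, -0.14 and 0.25, against -0.38 to 0.23 for arrays of different numbers. These values do not settle whether the numbers pair the mice. The replicate block left the median difference of the 10 genes at 0.38. That median was 1.77 with slide as a fixed block and -0.17 to 0.83 with 1 array left out. The median pairwise r was 0.61 without the 2 arrays farthest from the median, which are HFD replicate 2 and CD replicate 1, and 0.55 (without CD replicate 1) to 0.81 with 1 array left out. Signs turned as follows, and beyond the arrays left out the cause was not tested. Pecam1 was 0.36 with normexp and the 75th percentile (all genes had a median of 0.27 there), 0.49 with slide fixed and, with arrays left out, -0.61 to 0.093. Kdr by probe A_55_P2094469 was 0.23 with slide fixed and -0.20 to 0.055 with 1 array left out, and Kdr was 0.26 with the mean of its probes and 0.59 by probe A_51_P316553. Eng was 0.45 with slide fixed and, with arrays left out, -0.38 to 0.10. Leaving out 1 array gave -0.46 to 0.59 for Cdh5, -0.07 to 0.89 for Tek, -0.29 to 1.24 for Tie1 and -0.30 to 0.94 for Robo4. Esam stayed at 0.034 to 1.16 there. Without both HFD replicate 2 and CD replicate 1, a setting chosen after the values were seen and included in the ranges of Pecam1 and Eng, Cdh5 was -0.81, Tek -0.40, Tie1 -1.05, Robo4 -0.92 and Esam -0.52.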

Other observations

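Some vascular genes outside the naming rule, singled out after their values were seen, also varied widely over the 6 arrays. Sele, which encodes E-selectin, the adhesion molecule of activated endothelium, had levels of -6.34, -3.20 and -7.60 on the HFD arrays, against -5.50, -7.45 and -7.13 on the CD arrays, with HFD replicate 2 at the top. On HFD replicate 3 and CD replicate 2 it was not well above background, so no fold is given. Ndufa4l2, a hypoxia-induced gene abundant in pericytes, had levels of -3.57, -1.33 and 1.19 on the HFD arrays, against -1.14, 2.16 and 1.94 on the CD arrays, a 53.2-fold range. Its order was not that of the endothelial genes (r = 0.33 with their mean). Notch3, a receptor of mural cells, had levels of -2.74, -1.06 and 0.62 on the HFD arrays, against -2.50, 0.90 and 0.07 on the CD arrays, a 12.5-fold range (r = 0.57).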
